A study of Mus musculus with 8 samples.

Results

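Genes that mark cholinergic and monoaminergic neurons were examined in RNA sequencing of the P3 mouse cortex after loss of the chromatin remodelling subunits BAF155 and BAF170. They are Th, Ddc, Slc18a2 and Slc6a3 of the catecholamine pathway, Tph2 and Slc6a4 of the serotonin pathway, and Chat, Slc18a3, Slc5a7 and Lhx8 of cholinergic neurons. The 10 genes were chosen by name, and all 10 were found among the 48709 gene identifiers of the count files. Of these, 9 had enough counts for the test across all genes, which covered 16525 genes, and Chat did not.

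Postnatal day 3 cortex of 4 dcKO_hGFAP-Cre mice was compared with that of 4 controls, all on a C57BL/6J background. Mutants were BAF155 fl/fl, BAF170 fl/fl and hGFAP-Cre pos/+, so both copies of both genes could be cut by Cre recombinase. The study's methods give the control genotype as BAF155 fl/+, BAF170 fl/+ and Cre pos/+, whereas the series labels describe these animals as wild type. If the methods hold, Cre and 1 floxed copy of each gene are shared by both groups. hGFAP-Cre expresses the recombinase from a human GFAP promoter and is described in the study as active in radial glia of the dorsal telencephalon before birth. Interneurons that migrate in from the ventral telencephalon, vessels, blood cells and axons arriving from other regions are therefore not its main target, and their RNA is part of a cortical sample. The labels do not say whether a sample is 1 animal or a pool, and p-values measure the spread between these samples only. The tissue is called cortex in the labels and dorsal telencephalon in the methods.

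Catecholamine neurons make dopamine and noradrenaline, serotonin neurons make serotonin, and each uses a synthetic enzyme, the shared vesicular monoamine transporter Slc18a2 and a plasma membrane transporter for reuptake. The cell bodies of dopamine, noradrenaline and serotonin neurons that project to the cortex lie in the midbrain and hindbrain, and their axons, not their cell bodies, reach the cortex. Cholinergic neurons of the forebrain lie in the septum, basal forebrain and striatum and depend on Lhx8, a LIM homeodomain factor of the ventral telencephalon. They make acetylcholine with Chat, load it into vesicles with Slc18a3 and take up choline with Slc5a7. In the newborn mouse, thalamic neurons that project to sensory cortex also express Slc6a4 and Slc18a2 for a time, and some cortical interneurons express Chat or Th.

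Some promoter stretches are shown because they hold letters that few other promoters hold. They come from RefSeq promoter windows of build GRCm38.p6, which run from 250 bases before to 50 bases after each start site, and all 10 genes had a window. The cAMP response element, spelled TGACGTCA on both strands, was found in the windows of Th and Slc18a2 and in 1.79% of all 32851 windows. Capitals mark it in the lines for these genes, at chr7:142900015-142900084 on the minus strand and at chr19:59260830-59260881 on the plus strand. The element lies at positions -45 to -38 from the Th start, just upstream of the first exon of the transcript Th-201 and within the longer span that GENCODE gives the gene. In Slc18a2 it lies across the start site, at -4 to 4.
Th: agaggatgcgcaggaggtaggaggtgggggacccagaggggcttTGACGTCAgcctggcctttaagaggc
Slc18a2: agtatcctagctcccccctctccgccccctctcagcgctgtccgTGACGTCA
The window of Tph2 held both arms of the element bound by REST, a repressor of neuronal genes. The arms are spelled TTCAGCACC and GGACAG, were each searched on both strands, and were found together in 30 windows, or 0.0913%. Their spacing and order were not part of the search. Capitals mark the arms in this stretch at chr10:115184988-115185014 on the minus strand, which starts at position 9 of the transcript.
Tph2: TTCAGCACCagggttctGGACAGcgcc
Counted with or without the other arm, the left arm was in 0.371% of windows and the right arm in 22.2%. Besides Tph2, the windows of Slc18a2, Slc6a3, Slc6a4 and Lhx8 held the right arm. AAAGGTCA, the element bound by NR4A factors, was in 1.51% of windows and in that of Ddc. None of these letters were in the windows of Chat, Slc18a3 and Slc5a7. A match describes the letters only.

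The libraries held 21126713 to 32110285 counts, and each of the sequencing lanes 5 (replicates 1 and 2), 6 (replicate 3) and 7 (replicate 4) held both groups. Expression is given as CPM, counts per 1000000 of the library size after it was multiplied by a TMM normalization factor. These factors were 1.03 to 1.06 in dcKO and 0.944 to 0.984 in control. Smarcc1, which encodes BAF155, was at 81.2 ± 5.90 CPM (SD, n = 4) in dcKO and 159 ± 11.2 in control cortex, and Smarcc2, which encodes BAF170, at 283 ± 28.2 and 483 ± 14.7. Of 6 cortical excitatory neuron markers, all were expressed and 5 were lower in dcKO, among them Neurod6 and Slc17a7, and their summed level was 645.8 to 809 CPM in dcKO and 1403 to 1597 CPM in control. Choroid plexus markers set dcKO replicates 1 and 2 apart, with sums of 617.2 and 1179 CPM, against 22.5 and 7.52 CPM in dcKO replicates 3 and 4 and 2.99 to 13 CPM in controls. Results are therefore also given with dcKO replicates 3 and 4 alone against the 4 controls where this changes them.

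At an adjusted p under 0.05, Th, Slc18a3 and Lhx8 were higher and Tph2 was lower in dcKO cortex, while Ddc, Slc18a2, Slc6a3, Slc6a4 and Slc5a7 did not pass the test. That is 4 of 9 tested genes, beside 37.5% of all genes tested, with 18.6% of all genes called higher and 18.9% called lower. These shares are also the background for the counts of called genes in every other list. The median log2 fold change of the 9 genes was 0.51, and that of all genes tested was 0.02. In none of the 10 genes did all 4 mutants lie on the same side of all 4 controls, which 34.4% of all genes tested did. The plot of the 10 genes by sample shows that the spread among mutants is wide for every gene that passed. Lower counts can come from fewer cells of a type or from less RNA per cell, and these cannot be told apart in bulk tissue.

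**Figure D1:**
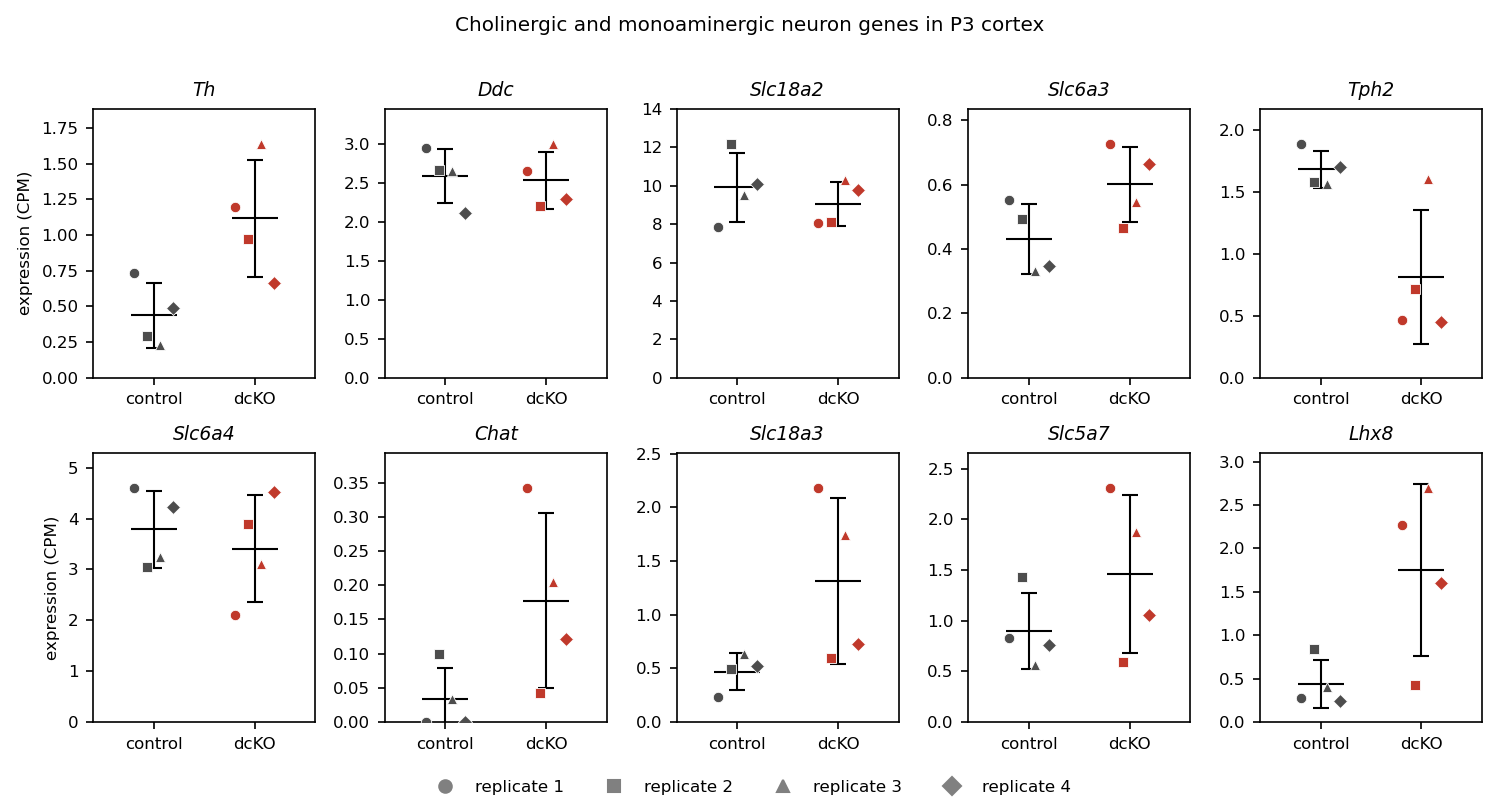
Expression in CPM (scaled counts, linear axis from 0, a separate scale for each gene) of the 10 genes in each of the 4 control (grey) and 4 dcKO (red) cortices, with marker shapes for the replicate number and bars for the mean ± SD. Th, Slc18a3 and Lhx8 are higher and Tph2 is lower on average in dcKO, but in each at least 1 dcKO sample lies within the control range.

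All 10 genes were weakly expressed. Per kilobase of exon, the control level was 1.90 CPM for Slc18a2 and 0.836 CPM for Slc6a4, the highest of the 10. Tph2 at 0.584 and Ddc at 0.582 CPM per kilobase came next and differed by less than the spread between controls. Slc18a3, Th, Lhx8 and Slc5a7 lay between 0.194 and 0.159 CPM per kilobase, also closer to each other than their spread, followed by Slc6a3 at 0.125 and Chat at 0.00701. In dcKO, on the same scale, Slc18a2 at 1.73 and Slc6a4 at 0.752 were still the highest, and Lhx8 came next at 0.690 CPM per kilobase. Tph2 stood at 0.282 CPM per kilobase there, below Ddc, Slc18a3 and Th.

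Among the catecholamine genes, Th rose while the genes for the next enzyme and for the transporters did not pass the test. Whether the change of Th differed from theirs was not tested. Th encodes tyrosine hydroxylase, the rate-limiting enzyme of catecholamine synthesis (ENSMUSG00000000214, chromosome 7, 142892752 to 142931128, minus strand, mm10). Th counts were 28, 23, 48 and 22 in dcKO replicates 1 to 4 and 16, 6, 7 and 14 in control replicates 1 to 4. As CPM this was 1.20, 0.975, 1.64 and 0.664 in dcKO and 0.736, 0.296, 0.232 and 0.486 in control. Mutants 1, 2 and 3 lay above all controls, and dcKO replicate 4 lay below control replicate 1. The mean was 1.12 ± 0.409 CPM in dcKO and 0.438 ± 0.226 CPM in control (SD, n = 4), a log2 fold change of 1.36 (standard error, SE, 0.39, adjusted p = 0.0154, edgeR's quasi-likelihood test). The exact two-sided permutation test on the 8 values gave p = 0.0571, where 0.0286 is the smallest that 4 against 4 samples allow. Within lanes the dcKO level was 2.10 times the control level on lane 5, 7.05 times on lane 6 and 1.37 times on lane 7. Without control replicate 2 or 3 the call was lost, at adjusted p = 0.0512 and 0.0541, and with dcKO replicates 3 and 4 alone it was lost at a log2 fold change of 1.39 (adjusted p = 0.0813).

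Ddc, the decarboxylase that completes the synthesis of dopamine and of serotonin (ENSMUSG00000020182, chromosome 11, 11814101 to 11898144, minus strand), did not pass the test. Ddc counts were 62, 52, 88 and 76 in dcKO and 64, 54, 80 and 61 in control. The ranges overlapped almost fully, and the log2 fold change was -0.03 (SE 0.19, adjusted p = 0.919). Slc18a2, which loads dopamine, noradrenaline, serotonin and histamine into vesicles (chromosome 19, 59260896 to 59296012, plus strand), was the highest of the 10. Its expression was 8.08, 8.09, 10.3 and 9.78 CPM in dcKO and 7.87, 12.2, 9.49 and 10.1 CPM in control, with a log2 fold change of -0.13 (SE 0.15, adjusted p = 0.542). All mutant values lay inside the range of the controls. The antisense genes that overlap Ddc, Slc18a2 and Slc6a4 had 0 to 3 counts over the 8 libraries.

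Slc6a3, the dopamine transporter of midbrain dopamine neurons (chromosome 13, 73536747 to 73578672, plus strand), was low in all libraries. Slc6a3 counts were 17, 11, 16 and 22 in dcKO and 12, 10, 10 and 10 in control. Mutants 1 and 4 lay above all controls in CPM, and the log2 fold change of 0.51 did not pass the test (SE 0.30, adjusted p = 0.202).

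Tph2, the neuronal enzyme that starts serotonin synthesis and marks raphe neurons (ENSMUSG00000006764, chromosome 10, 115078641 to 115185022, minus strand), fell in 3 of 4 mutants. Tph2 counts were 11, 17, 47 and 15 in dcKO and 41, 32, 47 and 49 in control. As CPM this was 0.470, 0.720, 1.60 and 0.453 in dcKO and 1.89, 1.58, 1.56 and 1.70 in control. Mutants 1, 2 and 4 lay below every control by more than the range of the controls, and dcKO replicate 3 lay among the controls. The mean was 0.812 ± 0.542 CPM in dcKO and 1.68 ± 0.151 CPM in control (SD, n = 4), and the log2 fold change was -1.03 (SE 0.36, adjusted p = 0.0366, exact two-sided permutation p = 0.0857). Without dcKO replicate 3 it was -1.62 (adjusted p = 0.000601), and without any 1 of the other 7 libraries the call was lost, with log2 fold changes of -0.80 to -1.07. The dcKO level was 0.344 times the control level on lane 5, 1.03 times on lane 6 and 0.266 times on lane 7. With dcKO replicates 3 and 4 alone the log2 fold change was -0.73 (adjusted p = 0.258).

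Slc6a4, the serotonin transporter of raphe neurons and of newborn thalamic neurons (chromosome 11, 76998603 to 77032340, plus strand), did not move with Tph2. Slc6a4 counts were 49, 92, 91 and 150 in dcKO and 100, 62, 98 and 122 in control, or 2.10 to 4.53 CPM and 3.06 to 4.60 CPM. The groups overlapped apart from dcKO replicate 1, the lowest of all 8, and the log2 fold change was -0.15 (SE 0.24, adjusted p = 0.655). Whether the changes of Tph2 and Slc6a4 differed from each other was not tested.

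Beside these genes, thalamic markers summed to 106.6 to 139.1 CPM in dcKO and 121.7 to 137.7 CPM in control. Of the 7, Gbx2 and Tcf7l2 were higher and Prkcd and Rora lower, while Slc17a6, the vesicular glutamate transporter of thalamic neurons, was at 61.1 ± 13.3 and 51.9 ± 3.66 CPM. The 7 mast cell markers summed to 0.546 to 2.69 CPM in dcKO and 1.74 to 2.41 CPM in control, with Fcer1a at 0 in 7 of 8 libraries. Hdc, which makes histamine and is in both the mast cell and the monoamine list, was at 1.20, 1.19, 0.171 and 0.272 CPM in dcKO and 1.32 to 2.27 CPM in control, so every mutant lay below every control. It did not pass with all 8 libraries (log2 fold change -1.23, adjusted p = 0.0786) but passed with the lane as a block (-1.43, adjusted p = 0.0122) and with dcKO replicates 3 and 4 alone (-2.81, adjusted p = 0.00198). Tpsb2, a mast cell protease too low for the test, lay the other way, at 0.171 to 0.664 CPM in dcKO and 0.0694 to 0.184 CPM in control (no filter on low counts, log2 fold change 1.77, adjusted p = 0.00791). The 5 platelet markers summed to 29.7 to 35.2 and 25.5 to 35.7 CPM, most of it Gp1bb, which shares 91.1% of its exon bases with Sept5. The platelet genes Itga2b (log2 fold change 1.03, adjusted p = 0.00213) and Pf4 (1.79, adjusted p = 0.0188, called in 5 of 8 fits that left out 1 library and lost with dcKO replicates 3 and 4 alone at 1.40, adjusted p = 0.112) were higher in dcKO. Ppbp and Gp9 were too low for the test. Ppbp had 1, 0, 2 and 0 counts in dcKO and 0 in all controls. Gp9 had 0, 1, 1 and 1 counts in dcKO and 2, 1, 4 and 0 in control. Mast cells and platelets use Slc18a2 to store histamine or serotonin, and platelets take serotonin up with Slc6a4. The part of any of these cells in the results was not tested.

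The 4 cholinergic genes behaved alike across the mutants. All 4 were at their lowest mutant level in dcKO replicate 2, where none lay above all controls, whereas all 4 did so in dcKO replicates 1 and 3 and 3 of 4 in dcKO replicate 4. Their summed expression was 7.10, 1.65, 6.52 and 3.50 CPM in dcKO replicates 1 to 4 and 1.34 to 2.86 CPM in controls.

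Lhx8 (ENSMUSG00000096225, chromosome 3, 154306294 to 154330659, minus strand) had the largest log2 fold change of the 9 genes tested. Lhx8 counts were 53, 10, 79 and 53 in dcKO and 6, 17, 12 and 7 in control. As CPM this was 2.27, 0.424, 2.69 and 1.60 in dcKO and 0.276, 0.838, 0.398 and 0.243 in control. Mutants 1, 3 and 4 lay above all controls and mutant 2 within them. The mean was 1.75 ± 0.990 and 0.439 ± 0.274 CPM (SD, n = 4), a log2 fold change of 2.03 (SE 0.54, adjusted p = 0.0127, exact two-sided permutation p = 0.0571). It passed in each of the 8 fits that left out 1 library, at 1.74 to 2.49, and without dcKO replicate 2 it was 2.34 (adjusted p = 0.00120). On lanes 5, 6 and 7 the dcKO level was 2.41, 6.77 and 6.58 times the control level.

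Slc18a3, the vesicular acetylcholine transporter, is a gene of 1 exon block on chromosome 14 (32462438 to 32464850, minus strand) that lies within the Chat gene (32408203 to 32465989, minus strand) and shares no exon base with it. Slc18a3 counts were 51, 14, 51 and 24 in dcKO and 5, 10, 19 and 15 in control. As CPM this was 2.18, 0.593, 1.74 and 0.725 in dcKO and 0.230, 0.493, 0.631 and 0.521 in control. Mutants 1 and 3 stood well above the controls, mutant 4 just above and mutant 2 among them. The log2 fold change was 1.44 (SE 0.44, adjusted p = 0.0231, exact two-sided permutation p = 0.0571). The call was lost without dcKO replicate 1 (log2 fold change 1.09) or 3 (1.26) and without control replicate 1 (1.23), 2 (1.45) or 4 (1.48). With dcKO replicates 3 and 4 alone it was 1.35 (adjusted p = 0.0612).

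Chat, which encodes choline acetyltransferase, was at the floor of detection. Chat counts were 8, 1, 6 and 4 in dcKO and 0, 2, 1 and 0 in control. Mutants 1, 3 and 4 had more counts than any control, and all 4 controls lay below the floor of 3 counts. The 19 counts in dcKO and 3 in control gave a ratio of 5.84 after allowing for library size, with an exact 95% interval of 1.72 to 30.8 that covers counting error only. In a fit with no filter on low counts the log2 fold change was 2.37 (SE 0.85, adjusted p = 0.0397), and in DESeq2 it was 2.50 with no adjusted p returned. An antisense gene, Gm2990, overlaps Chat with 37 counts over the 8 libraries and shares no exon base with it.

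Slc5a7, the high-affinity choline transporter and the last of the cholinergic genes (chromosome 17, 54273590 to 54299034, minus strand), did not pass the test. Slc5a7 counts were 54, 14, 55 and 35 in dcKO and 18, 29, 17 and 22 in control. Mutants 1 and 3 were the highest of all 8 libraries and mutant 2 was at the low end of the controls in CPM. The log2 fold change was 0.73 (SE 0.41, adjusted p = 0.176), and it was 0.96 (adjusted p = 0.0613) without dcKO replicate 2.

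Most striatal projection neuron markers were also lowest among mutants in replicate 2. The 5 transcription factors listed for forebrain cholinergic neurons besides Lhx8 lay above all controls there, though Isl1 and Nkx2-1 were lowest among mutants in that library. Relative to the control mean, Slc18a3, Slc5a7 and Lhx8 had a median level of 4.65 in dcKO replicate 1, 0.965 in replicate 2, 3.71 in replicate 3 and 1.55 in replicate 4. For 9 striatal markers these medians were 4.32, 0.961, 5.13 and 2.36, and 8 of the 9 were lowest among mutants in replicate 2. The striatal markers summed to 883.3, 446.6, 926.1 and 609.6 CPM in dcKO replicates 1 to 4 and 220.8 to 318.7 CPM in controls. In these sums, Ppp1r1b made up 276.4 CPM in dcKO replicate 2 and 34.2 to 49.1 CPM in controls. Only 2 of the 9 markers lay above all controls in replicate 2. Drd1 was lower on average, at 20.2, 7.58, 28.7 and 12.35 CPM in dcKO and 16.7 to 23.8 CPM in control. It did not pass the test (log2 fold change -0.17, adjusted p = 0.742). Of the 9 striatal markers, 5 were higher in dcKO and none lower, beside 18.6% and 18.9% of all genes tested. The higher ones ran from Ppp1r1b (log2 fold change 2.92, adjusted p = 4.54e-08), a phosphatase regulator of neurons that receive dopamine, to Rgs9 (0.43, adjusted p = 0.0349). Pde10a, at 177 ± 73.7 and 114 ± 20.6 CPM, did not pass with all 8 libraries (log2 fold change 0.64, adjusted p = 0.169) but passed with dcKO replicates 3 and 4 alone (0.74, adjusted p = 0.0163). Of the 9, 8 were called with dcKO replicates 3 and 4 alone and 3 with the lane as a block. The number called was 8 without dcKO replicate 2 and 3 without dcKO replicate 1 or 3 or control replicate 3 or 4. The part of striatal tissue or of other cholinergic cells in the cholinergic genes was not tested.

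**Figure D2:**
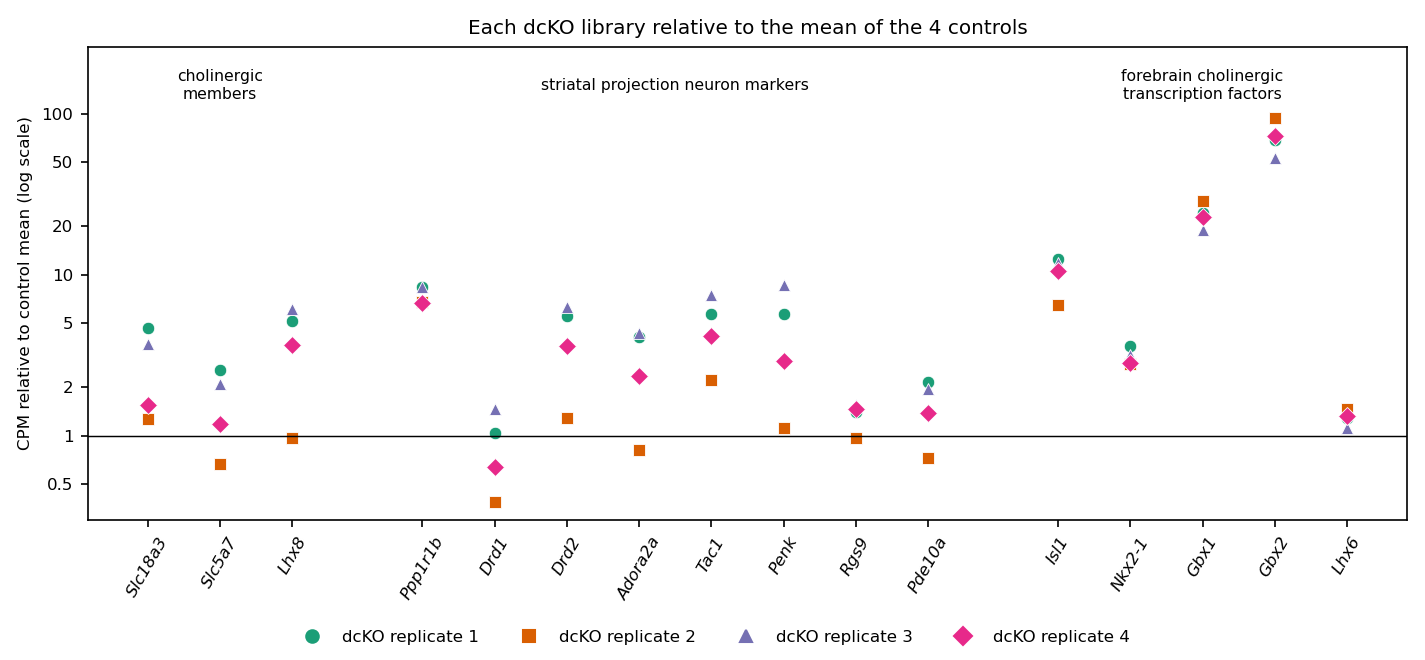
Expression of each gene in each of the 4 dcKO libraries divided by the mean of the 4 controls (log axis, line at 1 for the control mean). Replicate 2 (orange squares) lies at or near the control mean for Slc18a3, Slc5a7, Lhx8 and most of the 8 striatal markers shown, while for Isl1, Nkx2-1, Gbx1, Gbx2 and Lhx6 all 4 mutants lie above it.

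All 5 transcription factors listed for forebrain cholinergic neurons besides Lhx8 rose, and in all 5 every mutant lay above every control, replicate 2 included. Among all genes tested, 18.6% were called higher and 16.7% had every mutant above every control. The list was chosen with earlier results of these data known. In controls Gbx1 had 0 to 7 counts and Gbx2 0 to 1. Both passed the low-count filter only through dcKO, so only a higher call was possible for them. With at least 10 counts in every sample, 3 of the 5 were tested and all 3 were higher. Isl1, a LIM homeodomain partner of Lhx8 in cholinergic differentiation and a factor of striatal neurons, was at 17.3, 8.94, 16.3 and 14.6 CPM in dcKO and 0.874, 3.30, 0.996 and 0.382 CPM in control. The log2 fold change of Isl1 was 3.43 (SE 0.55, adjusted p = 0.00217). Nkx2-1, which specifies the medial ganglionic eminence, rose from 1.28 ± 0.293 to 3.97 ± 0.508 CPM (SD, n = 4, log2 fold change 1.63, adjusted p = 9.70e-05). Lhx6, which acts downstream of Nkx2-1 and is kept by cortical interneurons, rose from 103 ± 6.44 to 133 ± 14.3 CPM (log2 fold change 0.38, adjusted p = 0.00584), and with dcKO replicates 3 and 4 alone it missed the threshold (0.29, adjusted p = 0.0823).

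Gbx1, a homeodomain factor of the ventral telencephalon and of basal forebrain cholinergic neurons, was at 3.93, 4.70, 3.10 and 3.74 CPM in dcKO and 0, 0.345, 0.133 and 0.174 CPM in control. Replicate 2 was the highest mutant, and the log2 fold change was 4.56 (SE 0.41, adjusted p = 8.50e-06). Gbx2, a related factor with a role in the thalamus and in striatal cholinergic interneurons, had 161 counts in dcKO and 2 in control libraries, a ratio of 74.3 (exact interval 20.2 to 618.4, counting error only). Gbx2 shares 43.5% of its exon bases with D130058E05Rik on the opposite strand, which had 28 counts in all 8 libraries, and without a known strand setting reads from the pair cannot be told apart. The Zic genes of the septum and medial forebrain also rose, with Zic1 at 36.4 ± 8.46 and 18.5 ± 4.53 CPM, Zic2 at 23.9 ± 5.95 and 11.5 ± 3.48 CPM and Zic4 at 8.59 ± 2.89 and 3.23 ± 0.767 CPM. With dcKO replicates 3 and 4 alone Zic1 (0.68, adjusted p = 0.0578) and Zic2 (0.74, adjusted p = 0.0759) lost their calls, and Zic4 kept its call (0.94, adjusted p = 0.0253). In all, 4 of 5 tested septum and basal forebrain markers were higher (3 of 6 with dcKO replicates 3 and 4 alone), beside 18.6% of all genes tested. Gbx1 is among these 4 and is also counted among the forebrain cholinergic factors. With at least 10 counts in every sample, 4 of the septum and basal forebrain markers were tested and 3 were higher. The list sum was 69.5 to 100.7 CPM in dcKO and 31.8 to 52.6 CPM in control.

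Of 7 genes for acetylcholine breakdown, choline supply and trophic receptors, 4 were tested, none were higher and 2 were lower. With no filter on low counts, 2 of the 7 were higher and 3 lower. Prima1, too low for the test, had 13, 6, 15 and 10 counts in dcKO and 6, 1, 4 and 3 in control. Mutants 1, 3 and 4 lay above all controls in CPM (no filter, log2 fold change 1.5, adjusted p = 0.0285). Colq, also too low, lay the other way (same fit, -2.01, adjusted p = 0.0149). Ache, the esterase that ends cholinergic transmission and is also made by other neurons, fell from 59.2 ± 2.63 to 38.7 ± 4.55 CPM (SD, n = 4, log2 fold change -0.61, adjusted p = 0.000392). Slc44a1, a choline transporter of many cell types, fell from 59.6 ± 5.28 to 44.5 ± 2.56 CPM (log2 fold change -0.42, adjusted p = 0.00265). In both, every mutant lay below every control, so these genes did not move in the direction of Lhx8 and Slc18a3. Ngfr, the low-affinity neurotrophin receptor of basal forebrain cholinergic neurons, was at 9.38 ± 1.67 CPM in dcKO and 10.4 ± 2.46 CPM in control (log2 fold change -0.14, adjusted p = 0.565).

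Of 17 genes of monoamine synthesis, uptake and breakdown other than the 10 genes, 14 were tested, of which 6 were higher and 3 lower, with a median log2 fold change of 0.08. Over all genes tested, 18.6% were higher and 18.9% lower, with a median of 0.02. With dcKO replicates 3 and 4 alone 3 were higher and 3 lower, and without control replicate 3 there were 4 higher and 1 lower. The list holds enzymes for tetrahydrobiopterin, the cofactor of Th and Tph2, which moved in both directions. Gch1, the first enzyme of this pathway, was at 1.24, 1.36, 1.33 and 1.45 CPM in dcKO and 0.874, 0.690, 0.797 and 0.451 CPM in control, without overlap (log2 fold change 0.94, SE 0.25, adjusted p = 0.0107). It missed the threshold with dcKO replicates 3 and 4 alone (0.99, adjusted p = 0.0627). Pts, the second enzyme, rose from 23.7 ± 0.839 to 35.5 ± 3.78 CPM (log2 fold change 0.59, adjusted p = 0.000602). Spr, which completes the cofactor, fell from 32.7 ± 4.19 to 22.5 ± 5.47 CPM (log2 fold change -0.54, adjusted p = 0.0159) and overlapped between groups. Spr lost the call with dcKO replicates 3 and 4 alone (-0.43, adjusted p = 0.153). Qdpr and Pcbd1, which regenerate it and fall outside the naming rule, were higher by 0.48 (adjusted p = 0.00158) and 0.47 (adjusted p = 0.0480). Pcbd1 kept the call in 2 of 8 fits that left out 1 library and lost it with the lane as a block (adjusted p = 0.0506) and with dcKO replicates 3 and 4 alone (adjusted p = 0.152).

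Slc29a4, a low-affinity plasma membrane monoamine transporter, fell from 222 ± 23.4 to 105 ± 5.89 CPM (SD, n = 4, log2 fold change -1.08, SE 0.09, adjusted p = 3.97e-06). Its 4 mutant values of 96.2 to 108.4 CPM lay below all controls, at 200.7 to 243.7 CPM. Maoa, a mitochondrial enzyme that breaks down monoamines, rose from 72.3 ± 5.33 to 103 ± 5.31 CPM (log2 fold change 0.51, adjusted p = 0.000375). Maob, its relative, which falls outside the naming rule, was at 4.39 ± 0.754 and 5.97 ± 0.595 CPM (log2 fold change -0.44, adjusted p = 0.0469). Its call was lost with dcKO replicates 3 and 4 alone (-0.34, adjusted p = 0.279) and held in 1 of 8 fits that left out 1 library. Pnmt, which turns noradrenaline into adrenaline, rose with a log2 fold change of 0.98 (adjusted p = 0.0430), but kept the call in 2 of 8 such fits and lost it with dcKO replicates 3 and 4 alone (adjusted p = 0.190).

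Dbh, which makes noradrenaline from dopamine, and Slc6a2, the noradrenaline transporter, were too low for the test and are named after their values were seen. Dbh counts were 3, 6, 2 and 3 in dcKO and 10, 7, 8 and 11 in control, so every mutant lay below every control (no filter on low counts, log2 fold change -1.44, adjusted p = 0.0400). Slc6a2 was at 0 to 0.0855 CPM in dcKO and 0.0920 to 0.199 CPM in control, under or near the floor (same fit, adjusted p = 0.132). Th and Dbh thus lay in opposite directions, and the difference between them was not tested.

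**Figure D3:**
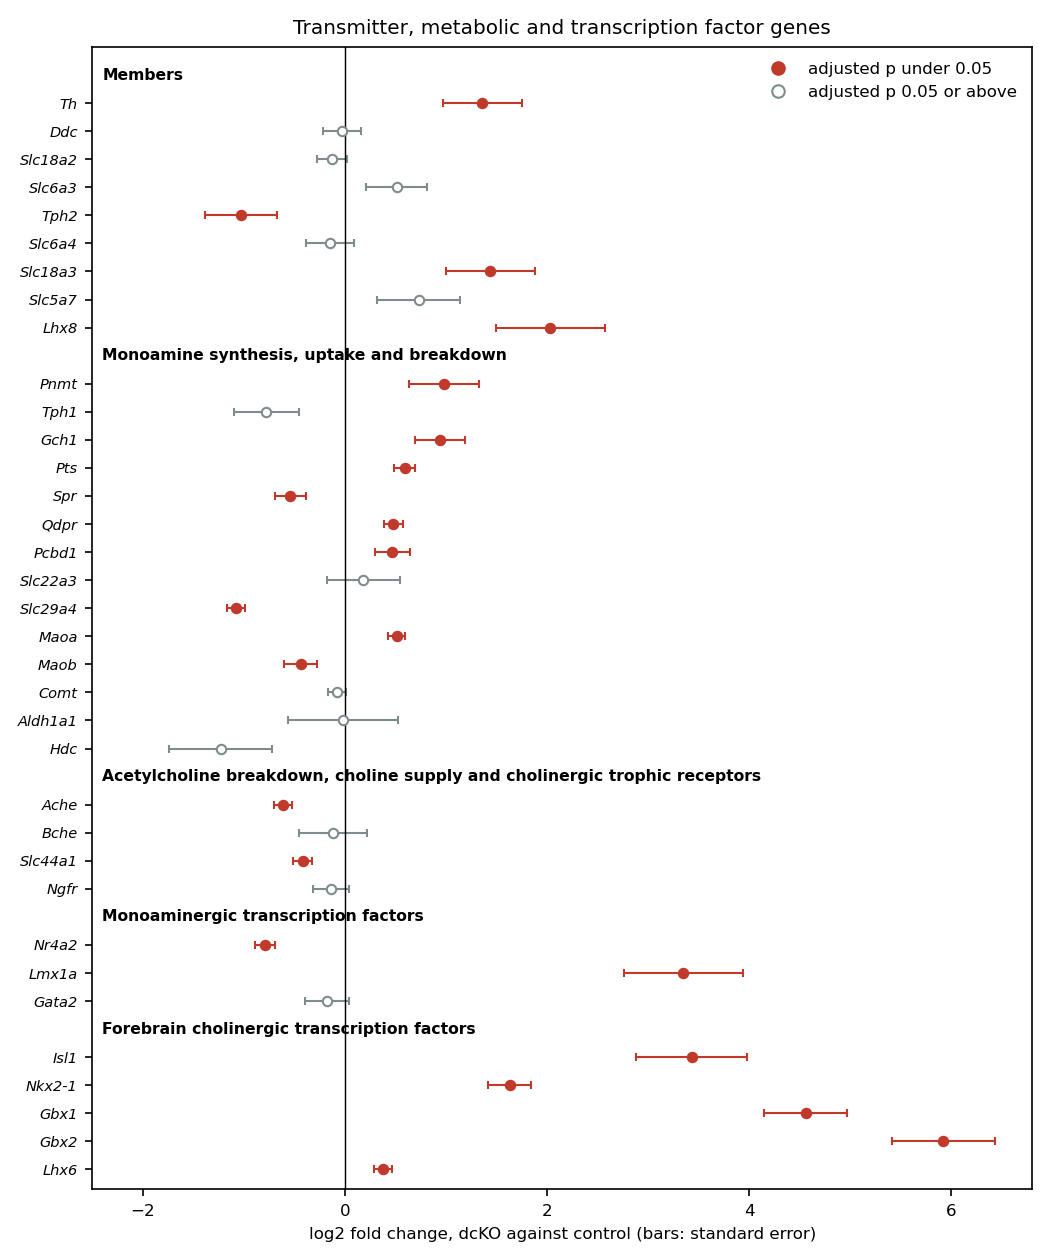
Log2 fold changes (dcKO against control, bars for the standard error) of the 9 tested genes and of the tested genes in 4 lists, with filled red points for an adjusted p under 0.05. The 5 forebrain cholinergic transcription factors lie to the right of 0, from Lhx6 at 0.38 to Gbx2 at 5.92, while the genes of transmitter metabolism fall on both sides.

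Some factors of midbrain and hindbrain monoamine neurons were at or near 0 in every library, while others, among them Nr4a2, Gata2 and, in dcKO, Lmx1a and En1, were detected. Pitx3 and Foxa2, of midbrain dopamine neurons, had 1 and 2 counts over all 8 libraries, and Fev, of serotonin neurons, had 1. Of 13 monoaminergic transcription factors, 3 were tested, 1 of them higher and 1 lower. The higher one, Lmx1a, had 1 to 8 counts in controls. It passed the low-count filter only through dcKO, so only a higher call was possible. With at least 10 counts in every sample, 2 of the 13 were tested, 0 of them higher and 1 lower. Nr4a2, which drives Th in dopamine neurons and is also a factor of deep cortical neurons, fell from 101 ± 8.08 to 58.2 ± 8.10 CPM (log2 fold change -0.79, adjusted p = 0.000119). Gata2, of serotonin neurons and of other cell types, had 37 to 64 counts per library and did not pass (1.77 ± 0.478 and 1.99 ± 0.234 CPM, log2 fold change -0.18, adjusted p = 0.549). Lmx1a, a factor of dopamine progenitors and also of the cortical hem and roof plate, was at 2.48, 2.88, 0.614 and 1.18 CPM in dcKO and 0.0347 to 0.266 CPM in control (log2 fold change 3.35, SE 0.59, adjusted p = 0.00125). Its highest values were in replicates 1 and 2, those with high choroid plexus genes, and with replicates 3 and 4 alone it was 2.39 (adjusted p = 0.0163).

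En1, shared by midbrain dopamine and hindbrain serotonin neurons, was named after its values were seen. It had 47 counts in dcKO and 6 in control, a ratio of 7.23 (exact interval 3.08 to 20.7, counting error only), with every mutant above every control. Its partner En2 had 4 and 2 counts.

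Among the other regional lists, hypothalamic markers summed to 2.54 to 4.07 CPM in dcKO and 1.70 to 2.08 CPM in control, with Sim1 higher (log2 fold change 3.74, adjusted p = 0.00160) and Pmch and Oxt at 0 to 0.0604 CPM. Sim1 had 0 to 6 counts in controls and passed the low-count filter only through dcKO, so only a higher call was possible. Olfactory bulb markers, which bear on Th because periglomerular neurons express it, summed to 116.3 to 133.3 and 86.6 to 104.2 CPM. Calb1 made up 58.6 to 71.9 CPM of this in dcKO and 24.8 to 31.4 CPM in control. It was the only marker of the list with every mutant above every control. Of the 5 tested, Calb1 (1.29, adjusted p = 3.20e-06) and Eomes (0.70, adjusted p = 0.0265, called in 3 of 8 fits that left out 1 library and lost with dcKO replicates 3 and 4 alone at 0.63, adjusted p = 0.169) were higher, and Etv1 (-0.53, adjusted p = 0.00301) and Sall3 (-0.27, adjusted p = 0.0483, called in 1 of 8 such fits) were lower. Sp8, of their progenitors, was at 12.2 ± 1.75 and 12.6 ± 2.35 CPM. With dcKO replicates 3 and 4 alone Sall3 lost its call (-0.29, adjusted p = 0.128). Of 4 markers of Vip and calretinin interneurons, which include the cortical cells that express Chat, Calb2 rose from 20.5 ± 1.16 to 60.1 ± 15.7 CPM (log2 fold change 1.55, adjusted p = 3.41e-05). Vip itself was at 4.08 ± 0.938 and 4.97 ± 0.965 CPM (log2 fold change -0.29, adjusted p = 0.272). Crh (-0.2, adjusted p = 0.437) and Htr3a (-0.26, adjusted p = 0.1975) did not pass either. Thus 1 of the 4 was called and 3 were not, with a median log2 fold change of -0.23. Of 6 choroid plexus markers, 3 were higher, or 1 to 5 with 1 library left out and 1 with dcKO replicates 3 and 4 alone. Ttr was at 584, 1128, 15.8 and 1.72 CPM in dcKO. The part of these tissues in the results was not tested.

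**Figure D4:**
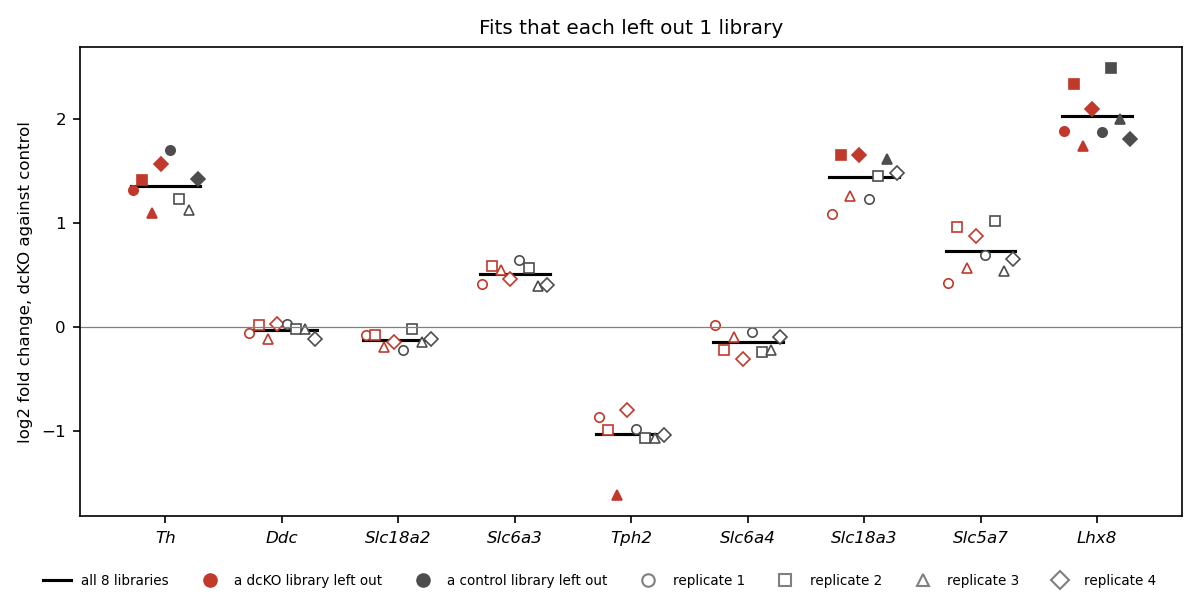
Log2 fold changes of the 9 tested genes when each library was left out in turn (points, red for a dcKO and grey for a control library left out, shapes for the replicate number, filled where the adjusted p was under 0.05) beside the value with all 8 libraries (black line). Lhx8 is filled in all 8 fits, Th in 6, Slc18a3 in 3 and Tph2 in 1, where dcKO replicate 3 was left out and the value was -1.62.

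For 3 of the genes, those with the most similar profile over the 8 samples were found among 14604 genes by the root mean square difference of centred log2 CPM. For Th these were Dok2 (0.279), Il3ra (0.332) and Gadd45g (0.336), and for Slc6a4 D130017N08Rik (0.171), AW121686 (0.190) and Pitpnm3 (0.191). For Chat they were Tgfa (0.269), Dach1 (0.278) and Gpr83 (0.301), where the Chat profile rests on 22 counts and is mostly set by the prior count of 2.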

How the data were processed

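RNA sequencing of P3 cortex from 4 dcKO_hGFAP-Cre and 4 control mice was analysed. RNA was extracted with TRIZOL, libraries were made with the TruSeq RNA kit, reads were aligned to mm10, and the authors deposited raw counts per gene from featureCounts, without normalization. The aligner, gene annotation, strand setting and treatment of reads matching several genes are not given in the sources used here, so counts of overlapping genes are uncertain. Of 48709 identifiers, 48349 were matched to a symbol and position in GENCODE M21 of the same build, and 30608 had at least 1 count.

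Totals were 21126713 to 32110285 counts per library. A floor of 3 counts equals 0.0906 to 0.148 CPM. Counts were scaled by TMM, and 16525 genes passed edgeR's filter (minimum count 10) and were tested with the robust quasi-likelihood test of edgeR 4.0.16 (R 4.3.3), without a block. Benjamini-Hochberg adjustment ran over all genes tested, and an adjusted p under 0.05 was called. Standard errors were derived from each fold change and F value. Two-sided exact permutation tests used the 70 arrangements of 4 against 4 samples. Ratios of summed counts have exact 95% conditional intervals, which cover counting error only. No 2 replicates agreed within sampling noise. The script was first tested on simulated data.

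Alternatives were DESeq2 1.42.0, limma-voom (limma 3.58.1), DESeq2's size factors, library totals, other low-count filters, a replicate or lane block, each library left out and, added after seeing the data, dcKO replicates 3 and 4 alone. The 10 genes, the pathway and marker lists and the promoter motifs were chosen with earlier results of these data known. Named are the 10 genes in every sample, in each pathway list the genes that passed (the 6 with the largest change if more did), in each marker list up to 4 of the highest and defining markers at 0, and for Th, Chat and Slc6a4 the 3 genes of most similar profile among those with a mean of at least 1 CPM. Other genes, among them called genes of short marker lists, were named after their values were seen. A few listed genes were left out of the text.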

Additional observations from a re-analysis of the deposited data

How the results depend on the processing

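The replicate numbers were not treated as pairs. Correlations of deviations from the group means between same-numbered samples were 0.172, -0.0679, 0.213 and -0.0238, and not every sample correlated best with its own number. With so few samples this cannot exclude a pairing, and same-numbered samples shared a sequencing lane. With the replicate number as a block, 2932 genes were higher and 2982 lower, and of the 10 genes only Lhx8 lost its call (1.96, adjusted p = 0.0510). Among other named genes, Pcbd1 (adjusted p = 0.0618), Maob (0.0689) and Sall3 (0.0724) lost their calls under the block, Hdc gained one (-1.41, adjusted p = 0.0180), and 3 of 9 striatal markers were called. Over all genes the main counts were 3074 higher and 3128 lower. Library totals gave 4584 higher and 2102 lower, as the median over all genes tested moved from 0.024 to 0.146 on the log2 scale. With dcKO replicates 3 and 4 alone 1388 were higher and 1581 lower, a fit with fewer samples, and with 1 library left out 2199 to 3308 were higher and 2375 to 3273 lower.

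Of the 10 genes, 3 were higher and 1 lower. The lower count was 0 with library totals (1 at an unadjusted p under 0.05), 0 with dcKO replicates 3 and 4 alone (0 unadjusted), and 0 to 1 with 1 library left out (1 unadjusted in each fit), while DESeq2 and limma-voom each gave 1. The higher count was 0 when at least 10 counts were required in every sample, since that filter removed Th, Slc18a3 and Lhx8 (0 unadjusted), 1 with dcKO replicates 3 and 4 alone, and 1 to 3 with 1 library left out (3 in DESeq2, 2 in limma-voom, 1 without control replicate 2). Tph2 was -0.92 with library totals (adjusted p = 0.0592), -0.73 with dcKO replicates 3 and 4 alone, and -1.62 to -0.80 with 1 library left out. Slc18a3 was 1.27 with limma-voom (adjusted p = 0.0546), 1.35 with dcKO replicates 3 and 4 alone, and 1.09 to 1.66 with 1 library left out. Th was 1.39 with dcKO replicates 3 and 4 alone and 1.10 to 1.70 with 1 library left out. Signs turned only in genes that did not pass: Ddc (0.09 with library totals, 0.03 with dcKO replicates 3 and 4 alone, -0.12 to 0.03 with 1 library left out), Slc18a2 (0.02 with dcKO replicates 3 and 4 alone) and Slc6a4 (0.01 with dcKO replicates 3 and 4 alone, -0.31 to 0.02 with 1 library left out). The cause of these changes was not tested beyond what is stated. Depth limits Chat and most of the monoaminergic transcription factors, which lie at or under about 3 counts in many libraries.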
